A study of Mus musculus with 12 samples.

Results

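A set of 10 genes that mark the repair or denervation of skeletal muscle were followed through 12 libraries of mouse breast tumour RNA: Pax7, Myf5, Myod1, Myog, Mymk, Mymx, Myh3, Myh8, Chrna1 and Chrng. They were taken by name, 10 of the 56884 genes counted, with each gene identifier matched to its symbol after the version was dropped, and 8 of the 10 were kept by the filter on low counts that left 17757 genes for testing. Myf5 and Mymx were not kept. The members were chosen by their CPM (counts scaled to library size, by TMM) across the 4 treatments, so their levels and changes are given as a description and carry no test. The question behind the choice was whether muscle transcripts in these tumours came with those of regenerating muscle or with those of intact muscle beside the tumour.

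The tumours were formed from TS/A, a mouse mammary carcinoma line, together with cancer-associated fibroblasts, and every sample is labelled as wild type. The 4 treatments had 3 libraries each: none (control), radiotherapy (RT), muFAP-4-1BBL (FAP41BBL) and both agents (RT_FAP41BBL). muFAP-4-1BBL brings the ligand of 4-1BB, a costimulatory receptor of T cells, to fibroblast activation protein on fibroblasts. The labels name no animal, strain, dose, harvest time, tumour site or batch for a library, so a p-value speaks only to how far these samples scatter, and that scatter may be technical. Library totals were 34076477 to 42067481 counts, and the 3 RT libraries, at 39367317 to 42067481, were deeper than the other 9. Of the markers of the labelled cells, those of fibroblasts summed to 3652 to 7037 CPM per library. Among the epithelial markers Krt8 stood at group means of 253 to 345 CPM and Epcam at 0.402 to 4.23.

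Muscle repairs itself from satellite cells, stem cells that lie under the sheath of each fibre and carry the transcription factor Pax7. When a fibre is damaged they divide and switch on the myogenic factors Myf5 and Myod1, then Myog as they leave the cell cycle, and fuse into new fibres through the membrane proteins myomaker (Mymk) and myomixer (Mymx). New fibres pass through embryonic (Myh3) and perinatal (Myh8) myosin heavy chains before the adult chains replace them. The acetylcholine receptor of the nerve-muscle synapse contains the alpha subunit Chrna1 at every age and the gamma subunit Chrng before birth, in regenerating fibres and in fibres that have lost their nerve, whereas Chrne takes the place of Chrng in mature innervated muscle. Loss of the nerve also raises Myog and Chrna1 in existing fibres, so these genes serve both states.

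The myogenic factors bind E-boxes, with the letters CANNTG, and the sequences below show where these letters lie in front of the receptor genes and Myog, the members whose names stand for both repair and denervation. RefSeq promoters of build GRCm38.p6 matched 7 of the 10 genes: Pax7, Myf5, Myog, Myh3, Myh8, Chrna1 and Chrng. The 250 bases before the annotated start are printed 5′ to 3′ on the gene's strand, with CANNTG in capitals, for Chrna1 (chr2:73580339-73580588, minus strand), Chrng (chr1:87205561-87205810, plus strand) and Myog (chr1:134289754-134290003, plus strand).
Chrna1: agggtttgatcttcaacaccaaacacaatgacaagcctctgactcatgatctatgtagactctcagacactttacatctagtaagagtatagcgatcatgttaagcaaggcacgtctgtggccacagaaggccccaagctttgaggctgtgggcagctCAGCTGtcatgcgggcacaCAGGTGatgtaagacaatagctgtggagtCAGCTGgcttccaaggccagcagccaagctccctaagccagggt
Chrng: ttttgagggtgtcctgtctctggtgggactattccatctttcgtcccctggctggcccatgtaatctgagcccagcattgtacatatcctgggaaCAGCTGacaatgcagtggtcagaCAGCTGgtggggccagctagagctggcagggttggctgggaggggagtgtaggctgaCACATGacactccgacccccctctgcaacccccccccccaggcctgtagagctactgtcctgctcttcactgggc
Myog: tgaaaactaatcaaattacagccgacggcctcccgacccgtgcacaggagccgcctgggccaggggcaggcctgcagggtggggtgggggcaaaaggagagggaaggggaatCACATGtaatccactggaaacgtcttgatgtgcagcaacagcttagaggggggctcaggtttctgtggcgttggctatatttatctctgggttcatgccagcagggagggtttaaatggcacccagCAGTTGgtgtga
CANNTG reads the same on both strands, so each match was counted once. Chrna1 held 3 matches, at 92, 73 and 44 bases before the start, and 2 of them were CAGCTG, one of the forms of CANNTG. Chrng also held 3, at 155, 132 and 75 bases, again with 2 of CAGCTG. Myog held 2, at 138 and 12 bases. Of 32851 promoters of the same length 66.2% held at least 1 CANNTG, 31.8% at least 2 and 12.2% at least 3, and 1.26% held at least 2 CAGCTG. Myh3 and Myh8 held 1 match each, and none was found in the window of Pax7 or Myf5. The matches are letters in a window and were not tied to binding, which these data do not measure.

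Across the study the 10 genes were highest in RT. All 3 RT libraries lay above the other 9 for 5 of the 10 genes (Pax7, Myod1, Myog, Myh3 and Chrna1), where 5.20% of all tested genes did so. RT lay wholly above control for 9 of 10, with 14.9% of all tested genes, the exception being Myf5. RT_FAP41BBL lay wholly above control for 4 (Myh3, Myh8, Chrna1 and Chrng), with 20.0% of all tested genes, and above FAP41BBL for 6, with 12.3%. RT lay above RT_FAP41BBL for 6 of 10, with 13.4%. Nothing is read from these counts, since the genes were chosen with their levels in view. By group means the order was RT, then RT_FAP41BBL, then control and FAP41BBL for 8 genes. Pax7 and Myf5 departed from it, with FAP41BBL second for Pax7 and control second for Myf5. For none of the 10 genes did control and FAP41BBL separate without overlap.

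**Figure D1:**
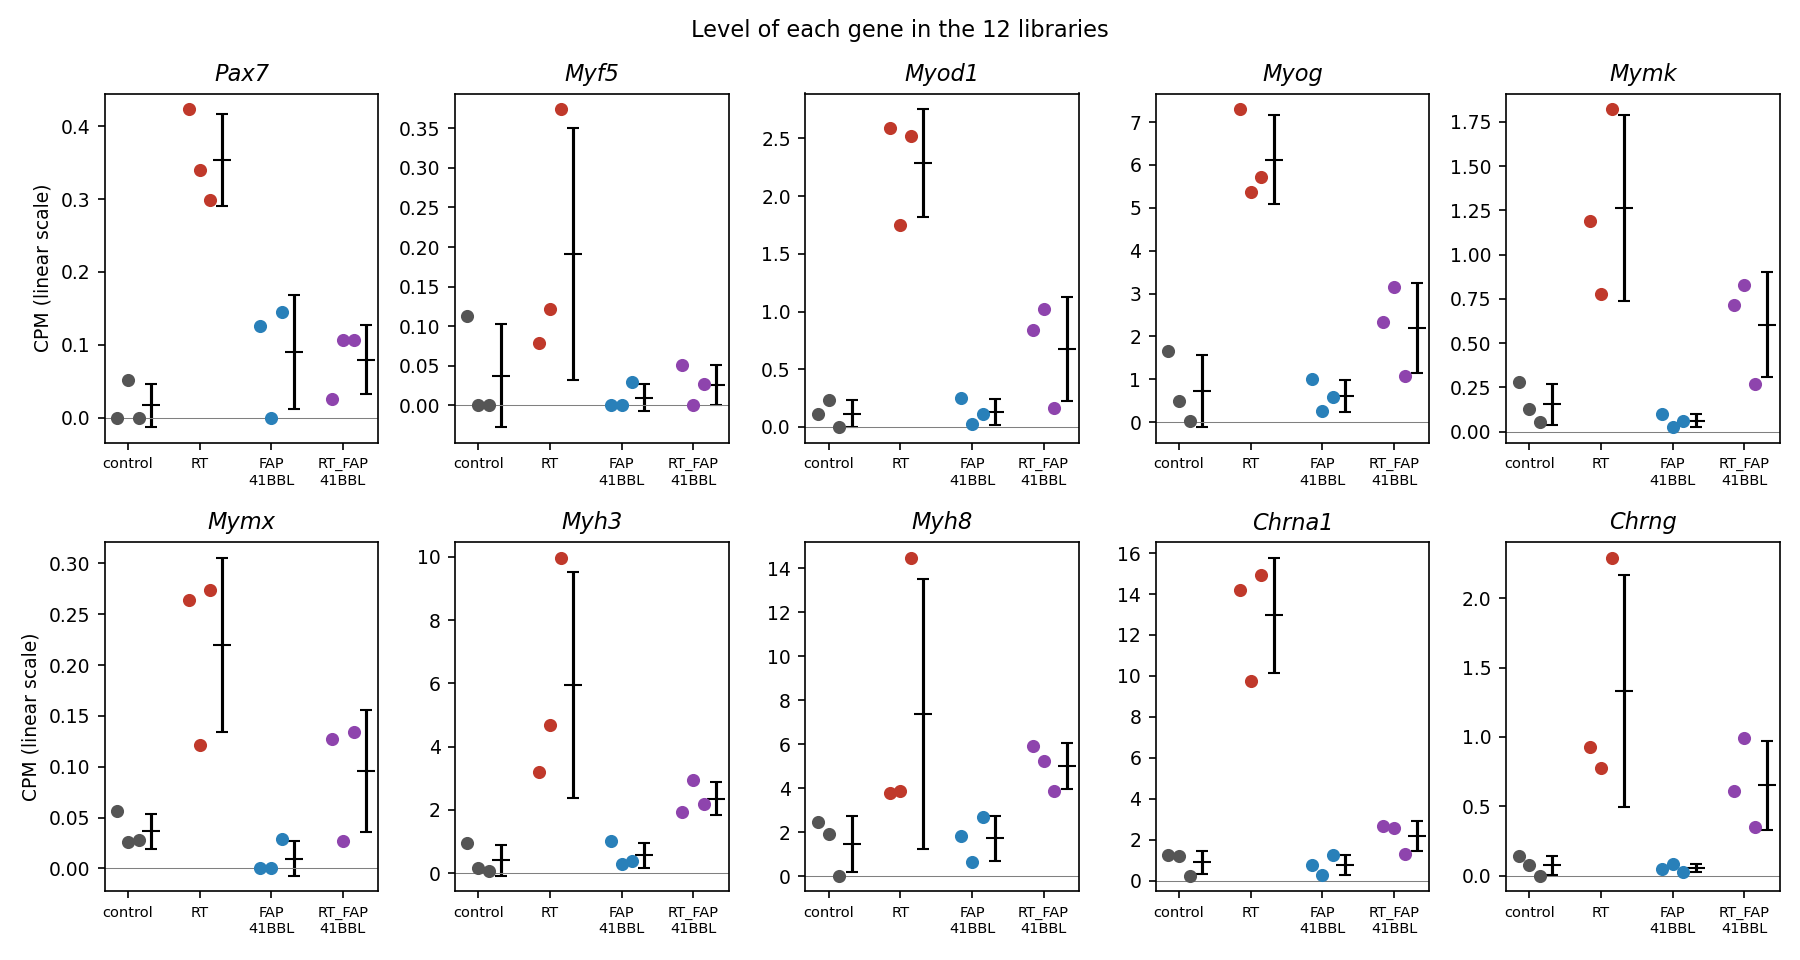
Level of each of the 10 genes in CPM on a linear axis that differs between panels. Points are the 3 libraries of control, RT, FAP41BBL and RT_FAP41BBL, and the bar beside them is the mean ± SD. RT is highest by mean in every panel, and for Chrna1 its 3 points, at 9.73 to 14.9 CPM, stand apart from all others.

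Pax7 (chromosome 4, 139464373 to 139560839, minus strand, GRCm39) rested on few counts. Control held 0, 2 and 0 counts and RT 16, 14 and 12. FAP41BBL held 5, 0 and 5 and RT_FAP41BBL 1, 4 and 4. In CPM the RT libraries stood at 0.423, 0.340 and 0.299, above all others, of which the highest was 0.145. A count of 0 in control replicates 1 and 3 allows up to 3 counts, or 0.0842 and 0.0824 CPM, as counting error alone. The pooled counts, 42 in RT against 2 in control, gave a ratio of 19.5 with a 95% counting interval of 5.08 to 167. RT_FAP41BBL gave 4.38 (0.907 to 41.7) and FAP41BBL 5.10 (1.09 to 47.8) against the same 2 counts. The intervals cover counting error only, not the spread between libraries.

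Myf5 (chromosome 10, 107318769 to 107321995, minus strand), which acts beside Myod1 in activated satellite cells, was also sparse. Control held 4, 0 and 0 counts and RT 3, 5 and 15, while FAP41BBL held 0, 0 and 1 and RT_FAP41BBL 2, 0 and 1. Control replicate 1 overlapped the RT libraries, and RT replicate 3 held 15 of the 23 RT counts. The pooled ratio of RT to control was 5.35 (1.83 to 21.3).

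Myod1 (chromosome 7, 46025898 to 46028523, plus strand), the factor that commits a cell to the muscle lineage, stood at 0.112, 0.232 and 0 CPM in control. RT had 2.59, 1.75 and 2.52 CPM, from 98, 72 and 101 counts. FAP41BBL had 0.252, 0.0289 and 0.116 CPM and RT_FAP41BBL 0.841, 1.02 and 0.161. The RT libraries were thus well above the rest, and RT_FAP41BBL replicate 3 lay within the control range. The 3 treated groups were compared with the same control libraries, so these changes are not independent. The log2 change was 4.26 ± 0.83 (SE) for RT against control and 2.50 ± 0.84 for RT_FAP41BBL against control. It was -1.76 ± 0.68 for RT_FAP41BBL against RT.

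Myog (chromosome 1, 134217727 to 134220286, plus strand), which drives the final differentiation of muscle cells, had 1.66, 0.489 and 0.0275 CPM in control and 7.30, 5.36 and 5.71 in RT. FAP41BBL had 1.01, 0.260 and 0.580 CPM, and RT_FAP41BBL had 2.34, 3.16 and 1.07. Control spread widely, from 1 count in replicate 3 to 59 in replicate 1, and it overlapped RT_FAP41BBL but not RT. The log2 changes against control were 3.08 ± 0.84 in RT, 1.6 ± 0.82 in RT_FAP41BBL and -0.21 ± 0.86 in FAP41BBL.

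Both fusion genes were highest in RT by group mean, and both also had counts in every control library. Mymk (chromosome 2, 26951648 to 26962191, minus strand) had 0.281, 0.129 and 0.0549 CPM in control, where RT had 1.19, 0.776 and 1.82. FAP41BBL stood at 0.101, 0.0289 and 0.0580, RT_FAP41BBL at 0.714, 0.830 and 0.268. RT_FAP41BBL overlapped RT at its top and control at its bottom, and lay wholly above FAP41BBL. The log2 change was 3.01 ± 0.58 in RT and 1.95 ± 0.59 in RT_FAP41BBL against control, and 3.18 ± 0.67 in RT_FAP41BBL against FAP41BBL. In FAP41BBL against control it was -1.23 ± 0.77, from 7 counts against 17.

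Mymx (chromosome 17, 45911897 to 45913028, minus strand) gave control libraries 2, 1 and 1 counts and RT libraries 10, 5 and 11. FAP41BBL libraries had 0, 0 and 1, RT_FAP41BBL libraries 5, 1 and 5. The pooled ratio to control was 6.05 (2.10 to 23.9) in RT and 2.68 (0.793 to 11.5) in RT_FAP41BBL, with intervals for counting error only. Its level in RT_FAP41BBL overlapped both RT and control.

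The developmental myosins differed from each other. Myh3 (chromosome 11, 66969126 to 66993117, plus strand) had 0.954, 0.180 and 0.0824 CPM in control, where RT had 3.20, 4.68 and 9.97. FAP41BBL stood at 1.03, 0.289 and 0.377, RT_FAP41BBL at 1.94, 2.95 and 2.20. Here RT was above RT_FAP41BBL, and RT_FAP41BBL above both other groups, without overlap. The log2 change against control was 3.88 ± 0.77 in RT and 2.54 ± 0.76 in RT_FAP41BBL.

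Myh8 (chromosome 11, 67167950 to 67199460, plus strand) had 2.47, 1.91 and 0.0275 CPM in control, where RT had 3.78, 3.86 and 14.5. FAP41BBL stood at 1.81, 0.636 and 2.7, RT_FAP41BBL at 5.91, 5.22 and 3.86. Of the 3 RT libraries 2 were no higher than the lowest RT_FAP41BBL library, and RT replicate 3 carried the RT mean. For RT_FAP41BBL against RT the log2 change was -0.56 ± 0.89, and it was 0.38 without RT replicate 3, so no direction is given. Against control it was 2.33 ± 0.96 in RT and 1.77 ± 0.95 in RT_FAP41BBL. Myh3 and Myh8 share long stretches with the adult heavy chains next to them on chromosome 11, and the counting rule for reads that fit several genes is not spelled out in the file headers, so their split from the adult chains is uncertain.

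Of the receptor subunits, Chrna1 separated RT from all other groups and Chrng did not. Chrna1 (chromosome 2, 73393559 to 73410682, minus strand) had 1.24, 1.18 and 0.247 CPM in control, where RT had 14.2, 9.73 and 14.9. FAP41BBL stood at 0.780, 0.260 and 1.25, RT_FAP41BBL at 2.65, 2.57 and 1.31. Both irradiated groups lay wholly above the unirradiated ones, and RT rested on 401 to 598 counts a library. The log2 change was 3.86 ± 0.59 in RT and 1.29 ± 0.56 in RT_FAP41BBL against control, and -2.57 ± 0.54 in RT_FAP41BBL against RT.

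Chrng (chromosome 1, 87132379 to 87140416, plus strand), the fetal subunit, had 0.140, 0.0772 and 0 CPM in control, where RT had 0.925, 0.776 and 2.29. FAP41BBL stood at 0.0503, 0.0868 and 0.0290, RT_FAP41BBL at 0.612, 0.991 and 0.349. RT and RT_FAP41BBL overlapped, and both lay wholly above control and FAP41BBL. The log2 change against control was 4.14 ± 0.73 in RT and 3.11 ± 0.74 in RT_FAP41BBL. In RT_FAP41BBL against RT it was -1.03 ± 0.57, beside -2.57 ± 0.54 for Chrna1.

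**Figure D2:**
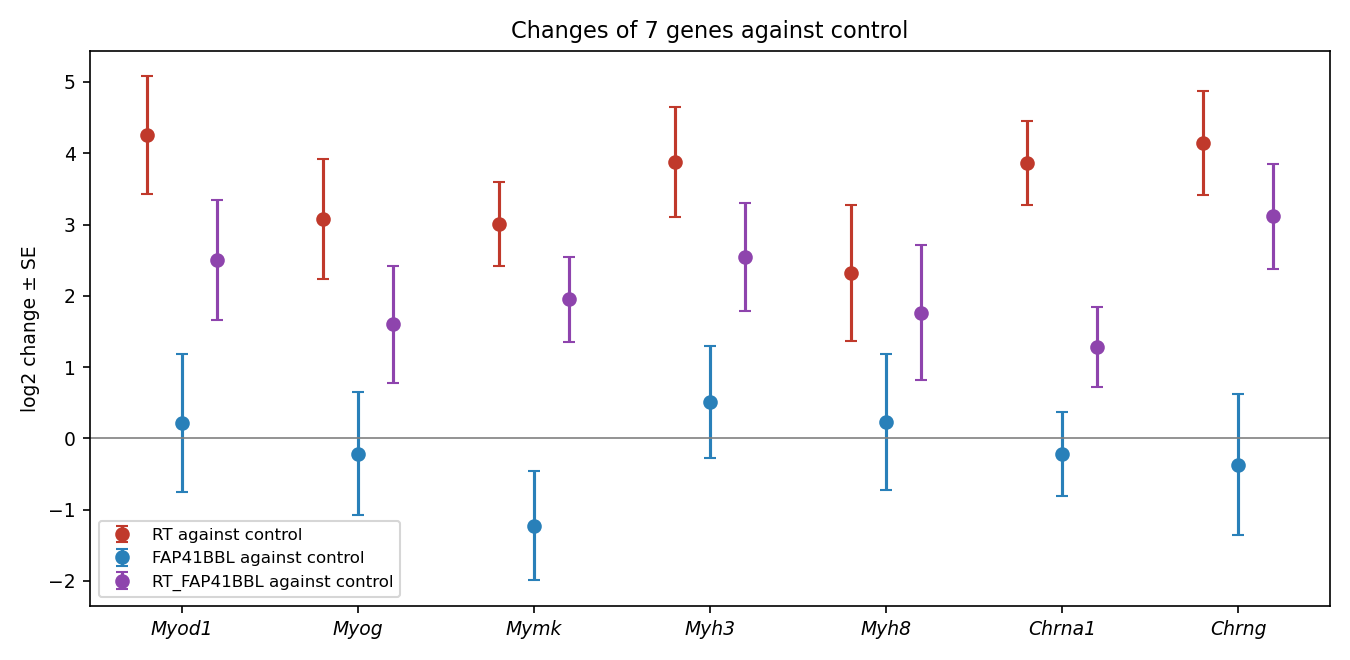
Log2 change ± SE against control of the 7 genes with a fitted change that does not rest on 1 to 3 control counts, for RT, FAP41BBL and RT_FAP41BBL. The 3 comparisons share the control libraries. RT points lie between 2.33 and 4.26, RT_FAP41BBL points between 1.29 and 3.11, and FAP41BBL points between -1.23 and 0.51.

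Control replicate 3 was the lowest control library for 7 of the 10 genes, and the low control levels made the size of these changes depend on single libraries. Without control replicate 1 the RT change was 5.46 for Myh3 and 3.72 for Mymk, and without control replicate 2 that of Myod1 was 5.26. Over all alternatives the RT change of the 7 genes stayed above 0, from 1.36 for Myh8 to 5.46 for Myh3. For FAP41BBL against control the sign of Chrna1, Chrng, Myh3, Myh8, Myod1 and Myog turned under at least 1 alternative.

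Set per length, in RPKM, the RT libraries ordered the genes as follows. Myog was highest at 4.88, 3.59 and 3.82 RPKM, followed without overlap by Chrna1 at 3.24, 2.22 and 3.40 and then by Myod1 at 1.39, 0.939 and 1.35. Myh3, Mymk and Myh8, at group means of 0.982, 0.835 and 0.626 RPKM, overlapped each other and Myod1. Chrng and Mymx followed by mean at 0.320 and 0.214, and Myf5 and Pax7 were lowest at 0.0919 and 0.0604. These lower ranks were not separated by library. Chrng, at 0.187 to 0.551, overlapped Myh3, Mymk, Myh8 and Mymx, and Myf5, at 0.0381 to 0.180, overlapped Mymx and Pax7. The order is across genes within the same 3 libraries, which are not independent for each gene.

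The levels were then set against those of mature fibres. A list of 35 genes of the adult fibre, such as Acta1 (skeletal actin) and Ckm (muscle creatine kinase), summed to 436.5, 443.9 and 139.5 RPKM in control, where RT had 3911, 3293 and 6777. FAP41BBL had 325.9, 133.3 and 1190 RPKM, RT_FAP41BBL 561.2, 623.4 and 358.4. The adult fibre sum was therefore far above the other groups in RT, and 1 of the FAP41BBL libraries, replicate 3, stood above every RT_FAP41BBL library. The 10 genes together summed to 2.15, 1.05 and 0.154 RPKM in control and reached 11.7, 8.78 and 13.7 with RT. FAP41BBL had 1.41, 0.391 and 1.14 RPKM, RT_FAP41BBL 4.22, 5.01 and 2.22.

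Per 1000 RPKM of adult fibre genes, the 10 genes came to 4.91, 2.37 and 1.10 in control and to 3.0, 2.67 and 2.02 with RT. FAP41BBL had 4.33, 2.93 and 0.957, RT_FAP41BBL 7.52, 8.04 and 6.19. All 3 RT_FAP41BBL libraries stood above the other 9, while RT lay inside the range of control and of FAP41BBL. The mean was 2.79 ± 1.94 (SD, n = 3) for control, 2.56 ± 0.50 for RT, 2.74 ± 1.70 for FAP41BBL and 7.25 ± 0.95 for RT_FAP41BBL, with no test since the members were chosen by their levels. Leaving out 1 library at a time moved the RT_FAP41BBL mean between 6.85 and 7.78, and the other means stayed between 1.74 and 3.64. In RT the genes thus stood high in level, and their ratio to adult fibre transcripts lay within the control range. In bulk RNA, fewer cells of a type and less RNA per cell cannot be told apart, and this holds for every level given here.

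**Figure D3:**
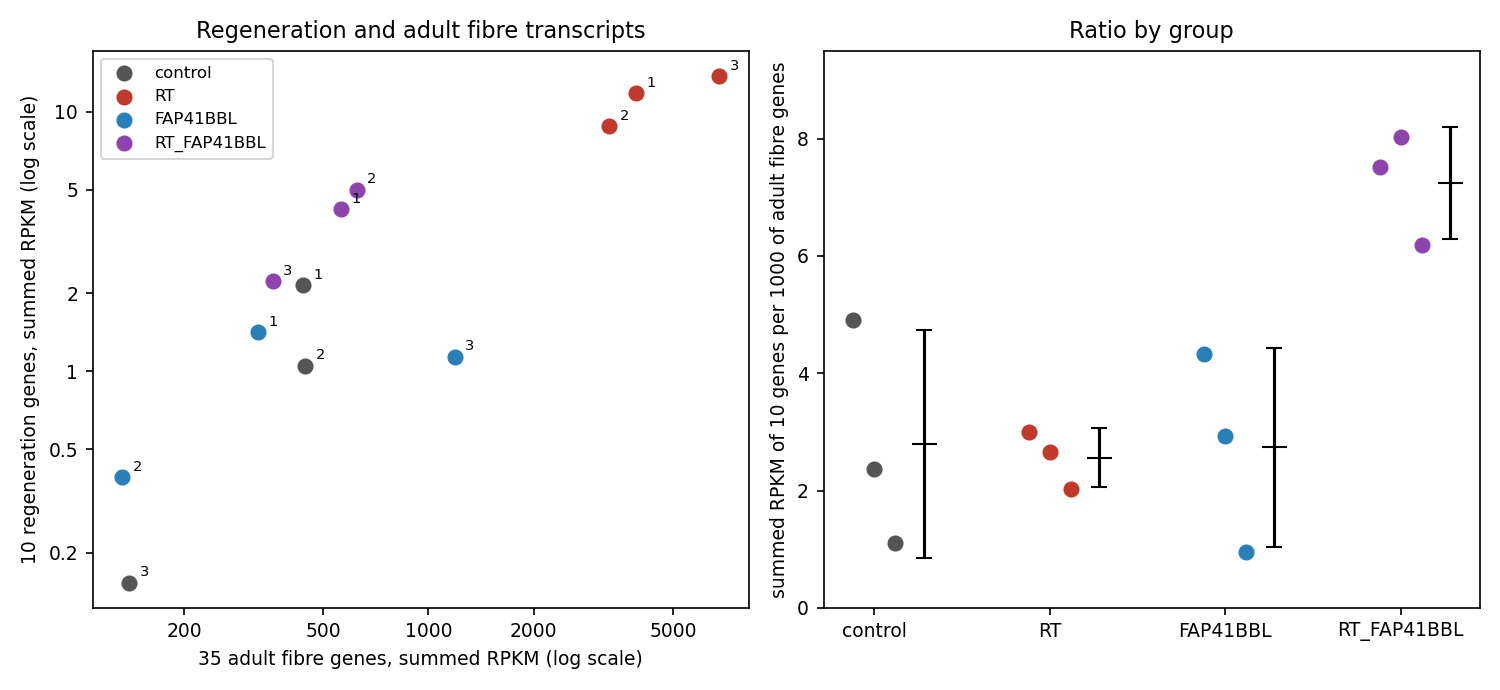
Left, summed RPKM of the 10 genes against that of 35 adult fibre genes for each library, both axes logarithmic, with replicate numbers beside the points. Right, the 10 genes per 1000 RPKM of adult fibre genes on a linear axis, with the mean ± SD. The RT libraries lie far to the right and highest on the left, and the RT_FAP41BBL libraries, at 6.19 to 8.04, are highest on the right.

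Member by member, the RT_FAP41BBL ratio lay above all other 9 libraries for Mymk, Myh3, Myh8, Chrna1 and Chrng. The share of all genes that do so by this ratio was not taken, so nothing is read from the number of members. The adult fibre sum that divides each ratio was 358.4 to 623.4 RPKM in RT_FAP41BBL and 3293 to 6777 in RT. Chrng came to 0.292 ± 0.0788 per 1000 in RT_FAP41BBL, 0.0649 ± 0.0142 in RT and 0.0397 ± 0.0387 in control. Mymk came to 0.739 ± 0.213 in RT_FAP41BBL and 0.178 ± 0.0227 in RT, and Myh8 to 0.840 ± 0.112 and 0.121 ± 0.0529. For Chrna1 the gap was narrow, with 1.08, 0.941 and 0.836 in RT_FAP41BBL and 0.829 in RT replicate 1. Myod1 and Myog overlapped other groups, and Pax7, Myf5 and Mymx rest on too few counts for a ratio to be read.

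The heavy chains gave a related picture. Of the transcripts of 6 skeletal heavy chains (Myh1, Myh2, Myh3, Myh4, Myh7 and Myh8), set per length, Myh3 and Myh8 made up 1.23%, 0.538% and 0.535% in control but 0.283%, 0.317% and 0.343% with RT. FAP41BBL had 1.75%, 2.57% and 0.239%, RT_FAP41BBL 1.64%, 2.01% and 3.01%. RT held the smallest mean share, and its libraries lay below all RT_FAP41BBL and control libraries, while FAP41BBL replicate 3 was lower still. Neither chain alone separated RT from control. Myh3 made up 0.0835% in control replicate 2, below its 0.176% to 0.2225% in RT. Myh8 made up 0.0783% in control replicate 3, below its 0.0943% to 0.1465% in RT. Counts of all 6 chains together ran from 661 in control replicate 3 to 207101 in RT replicate 3. Those of Myh3 and Myh8 were far fewer, at 3 and 1 in control replicate 3 and 10 and 22 in FAP41BBL replicate 2. The adult fast chain Myh4 went from 2.57 to 26.1 RPKM in control to 243.6 to 674.2 in RT. Myh7, the slow chain, had 3.41, 6.52 and 12.1 RPKM in RT and at most 0.106 in any other library.

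The choice between fetal and adult receptor subunits could be read in few libraries. Chrne had 2, 0 and 2 counts in control but 7, 7 and 31 with RT, while FAP41BBL held 0, 0 and 2 and RT_FAP41BBL 6, 3 and 0. Of Chrng and Chrne together, set per length, Chrng made up 67.0%, 65.0% and 54.6% in RT, from 42, 39 and 123 counts. In RT_FAP41BBL it was 61.9%, 83.3% and 100%, from 30, 40 and 13 counts, so the groups overlapped. Control and FAP41BBL had at most 7 such counts a library. Chrnb1, the beta subunit, stood at 15.2 to 25.8 RPKM in all 12 libraries, far above the other subunits, and its log2 change in RT was 0.05 ± 0.17 (edgeR's quasi-likelihood test, adjusted p = 0.890).

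**Figure D4:**
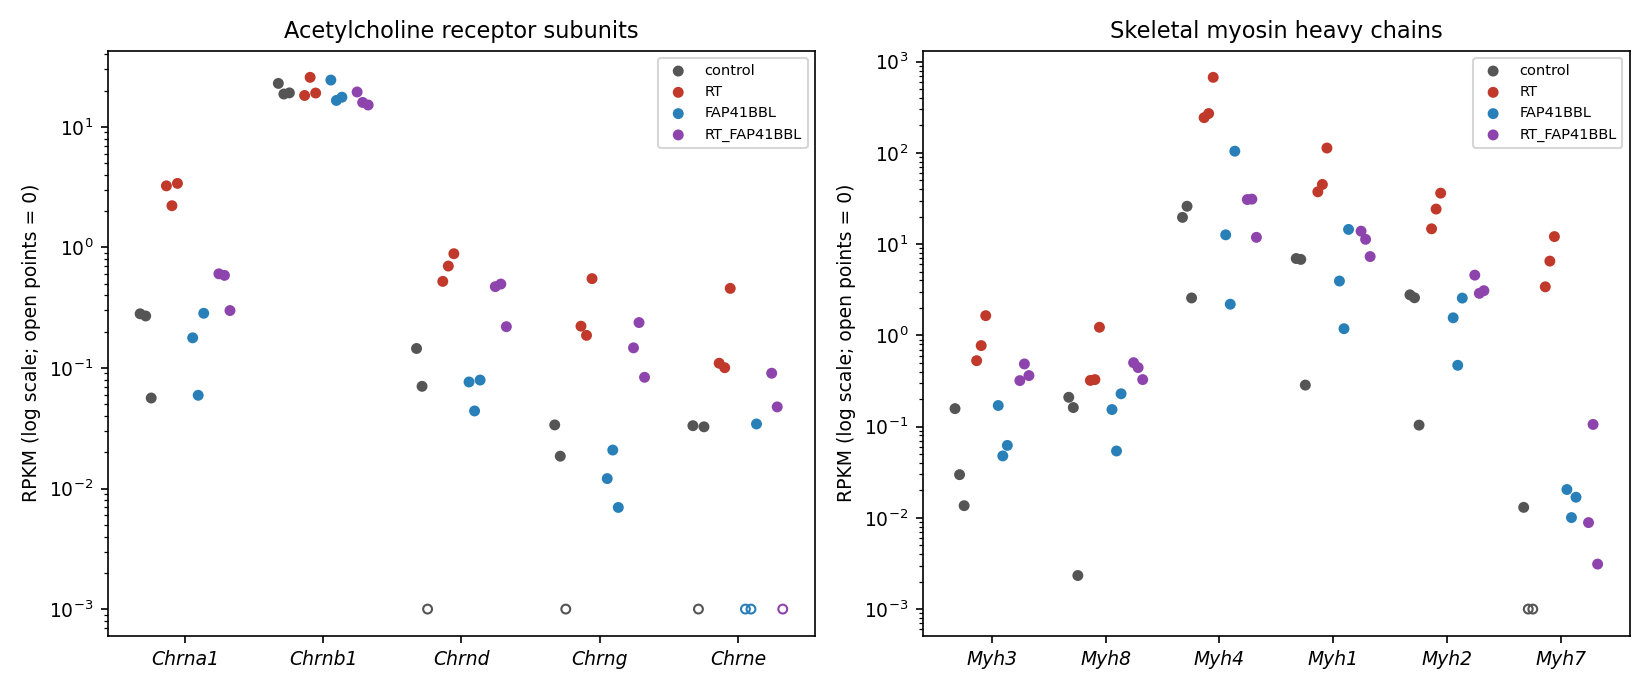
RPKM of 5 acetylcholine receptor subunits (left) and 6 skeletal myosin heavy chains (right) in each library, on logarithmic axes, with open points for libraries at 0. Chrnb1 is near the same level in all groups. Chrna1, Chrnd, Chrng and the adult subunit Chrne are highest in RT by mean, with Chrng overlapping RT_FAP41BBL. Myh7 stands at 3.41 to 12.1 RPKM in RT and at most 0.106 elsewhere.

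The wider pathways were read from lists of other genes linked to the same processes. The test was edgeR's quasi-likelihood test with Benjamini-Hochberg adjustment over all 17757 genes. These lists were chosen with earlier results of these data known, so their counts are not independent support for the 10 genes. In RT against control 9.62% of all genes passed, 6.57% higher and 3.05% lower. Without control replicates 1, 2 and 3 in turn, the 1709 calls became 1053, 805 and 970. The satellite cell and progenitor list had 3 of 12 members higher and none lower. Itga7, the laminin receptor of muscle cells, rose by log2 2.02 ± 0.20 (adjusted p = 0.000313), from 6.55 ± 1.10 to 26.6 ± 3.88 CPM. Chodl, a membrane lectin, rose by 3.49 ± 0.63 (adjusted p = 0.00568). Calcr, a receptor of resting satellite cells, rose by 2.43 ± 0.59 (adjusted p = 0.0232), a call that was lost without control replicate 1, 2 or 3 or RT replicate 2 (adjusted p = 0.0699 to 0.0790). Pax3, the sister gene of Pax7, stood at 3.96 to 5.80 RPKM in all 12 libraries and its change in RT was -0.07 ± 0.13.

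Of 19 partners in myogenic control and fusion, 4 rose and 4 fell in RT. Bex1, expressed in regenerating muscle cells, rose by 3.21 ± 0.45 (adjusted p = 0.00169), and Mef2c, a factor that works with the myogenic factors, by 1.41 ± 0.23 (adjusted p = 0.00456). Cdon, a surface receptor that promotes differentiation, fell by 0.76 on the log2 scale (adjusted p = 0.00138), and Hes6, a transcriptional regulator, fell by 0.81 (adjusted p = 0.00734). Cdon was abundant throughout, at 227.2 ± 18.5 CPM in control and 134.4 ± 8.83 in RT. Myf6, the myogenic factor of mature fibres, rose by 3.70 ± 0.78 (adjusted p = 0.0153), to 5.38, 8.07 and 10.1 RPKM in RT, above all 10 genes in each RT library. Its call was lost without control replicate 2 (adjusted p = 0.0619). The count for the list was 5 without control replicate 1 or 2 or without RT replicate 3.

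Developmental and injury sarcomere genes had 7 of 12 higher and 1 lower in RT. Ankrd1, a stretch and injury response gene, rose by 1.25 ± 0.14 (adjusted p = 0.000797), and Myl4, the embryonic myosin light chain, by 2.17 ± 0.41 (adjusted p = 0.00749). Igf2, a growth factor of developing muscle, passed as well (adjusted p = 0.00587), from 3 counts over the control libraries to 27, 22 and 60 in RT. Ncam1, an adhesion molecule of new and denervated fibres that other cells also carry, was the member that fell, from 192.8 ± 15.1 to 124.5 ± 8.01 CPM (adjusted p = 0.00689). The list count was 5 without control replicate 1 or 2 or RT replicate 2 or 3.

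Of 13 tested receptor and synapse genes 5 rose and none fell in RT. Chrnd, the delta subunit, rose by 3.28 ± 0.69 (adjusted p = 0.0121), Ache, the esterase that clears acetylcholine, by 1.88 ± 0.33 (adjusted p = 0.00487), and Rapsn, which anchors the receptor, by 1.47 ± 0.30 (adjusted p = 0.00924). Musk, the kinase that organises the synapse, rose by 3.02 ± 0.69 (adjusted p = 0.0193), which was lost without control replicate 1 or 3 or RT replicate 3 (adjusted p = 0.0567 to 0.0758). The count was 3 without control replicate 3 or without RT replicate 3.

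Among 15 tested denervation and atrophy genes 3 rose and 2 fell in RT. Fbxo32, the ubiquitin ligase atrogin-1, rose by 1.03 ± 0.22 (adjusted p = 0.0135), which was lost without control replicate 2 or 3 (adjusted p = 0.0545 and 0.0574). Trim63, the ligase MuRF1, had a change of 2.74 ± 0.82 (adjusted p = 0.0690). Runx1, a transcription factor induced by denervation, stood at 108.3 ± 19.1 CPM in control and 111.0 ± 6.20 in RT. Ncam1 and Runx1 were abundant in every library, also where Chrna1 was near 1 CPM. The list count was 1 without control replicate 2.

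Adult fibre genes had 24 of 35 higher and none lower in RT, with a median log2 change of 4.31 beside about 0 over all genes. That count was 17 or fewer without any 1 of the 6 libraries, with 8 as the lowest, without control replicate 2 or RT replicate 3. It was 9 and 10 without control replicates 1 and 3, and 10 without RT replicate 2. Tnni1, the slow troponin I that developing fibres also use, rose by 4.14 ± 0.52 (adjusted p = 0.00131) and kept its call in every alternative, whereas Acta1 had a change of 4.21 ± 1.23 (adjusted p = 0.0679) and Ckm 4.6 ± 1.4 (adjusted p = 0.0766).

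In RT_FAP41BBL against control 7.91% of all genes passed, 5.59% higher and 2.31% lower, and 5 of the 106 tested genes in the 6 muscle lists rose and 10 fell. Chrnd rose by 2.45 ± 0.69 (adjusted p = 0.0490), from 0.236 ± 0.239 to 1.30 ± 0.504 CPM, and was lost without control replicate 2 or 3 or any RT_FAP41BBL library (adjusted p = 0.0526 to 0.154). Itga7 rose by 0.93 ± 0.19 (adjusted p = 0.0138), which was lost without control replicate 2 or 3 or RT_FAP41BBL replicate 2 (adjusted p = 0.0514 to 0.0598). Tnni1 was the single adult fibre gene of 35 past the test, at 2.05 ± 0.50 (adjusted p = 0.0286), and lost its call without control replicate 2 or 3 or any RT_FAP41BBL library (adjusted p = 0.0549 to 0.119). Cdon fell by 0.61 (adjusted p = 0.00472) and kept its call in every alternative. Myl4 had a change of 1.28 ± 0.40 (adjusted p = 0.0749), Myf6 of 1.14 ± 0.75 (adjusted p = 0.407) and Acta1 of 1.06 ± 1.10 (adjusted p = 0.622). The count over all genes, 1404, was 790, 351 and 703 without control replicates 1, 2 and 3, and 914, 442 and 582 without those of RT_FAP41BBL.

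In RT_FAP41BBL against RT 5.76% of all genes passed, 3.36% higher and 2.40% lower, and 17 of the 106 genes fell and none rose. Adult fibre genes had 8 of 35 lower, with a median of -3.38, and none higher. The 8 became 5 without RT replicate 1 or 2 or RT_FAP41BBL replicate 1 or 2, and 4 without RT_FAP41BBL replicate 3, whereas DESeq2 called 29, limma-voom 19 and the fit of the 2 groups alone 35. Eno3, the muscle enolase, fell by 1.26 (adjusted p = 0.0036) and kept its call without any 1 library. Itga7 fell by 1.09 (adjusted p = 0.0112), Chodl by 3.55 (adjusted p = 0.0112) and Cdh15, the cadherin of satellite cells, by 1.69 (adjusted p = 0.0202). Ache fell by 1.74 (adjusted p = 0.0126) and Rapsn by 1.09 (adjusted p = 0.0482), whereas Chrnd had a change of -0.83 ± 0.60 (adjusted p = 0.447). Bex1 fell by 2.13 (adjusted p = 0.0151) and Mef2c by 1.13 (adjusted p = 0.0214). Without RT_FAP41BBL replicate 3 the calls of Itga7, Chodl, Cdh15, Ache, Rapsn, Bex1 and Mef2c were all lost, with adjusted p-values of 0.0632 to 0.188. Rapsn was also lost without any other of the 6 libraries, Cdh15 without RT replicate 1, Cdh15, Bex1 and Mef2c without RT_FAP41BBL replicate 1, and Chodl, Ache and Mef2c without RT_FAP41BBL replicate 2. The count over all genes, 1022, was 448, 303 and 2305 without RT replicates 1, 2 and 3, and 462, 205 and 70 without those of RT_FAP41BBL.

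In FAP41BBL against control 0.00563% of all genes passed, and none of the 106 genes of the 6 lists did by edgeR, with 9 at an unadjusted p under 0.05. DESeq2 called 1 of them and limma-voom none. In RT_FAP41BBL against FAP41BBL 0.946% of all genes passed, 0.822% higher and 0.124% lower, and of the 106 genes Bex1 rose by 2.74 (adjusted p = 0.0459) and Cdon fell by 0.48 (adjusted p = 0.0463), each lost without any 1 of the 6 libraries. The change with radiotherapy differed with muFAP-4-1BBL from that without it, by the interaction term, for 0.152% of all genes, 0.0282% higher and 0.124% lower, and for 2 of the 106, Ankrd1 and Myl3, both lower. These calls were lost in 10 and 8 of the 12 fits without 1 library, and both were lost with the replicate number as a block (adjusted p = 0.0644 each).

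Markers of other contractile and neighbouring tissue were read beside these results. All 8 smooth muscle markers were detected, with a summed level of 385.4 to 485.1 CPM in RT and 196.5 to 364.5 in control, beside 271.2 to 436.9 in FAP41BBL and 316.0 to 323.5 in RT_FAP41BBL. Against control 2 of the 8 rose in RT, Tagln (adjusted p = 0.0199) and Synpo2 (adjusted p = 0.0236), and 2 in RT_FAP41BBL, Tagln (adjusted p = 0.0448) and Cnn1 (adjusted p = 0.0496). Of 8 nerve and Schwann cell markers 7 were tested and 1, Pmp22, fell against control in RT (adjusted p = 0.0208) and in RT_FAP41BBL (adjusted p = 0.0105). Their sum was 287.3 to 328.5 CPM in RT, 436.7 to 560.7 in control, 387.0 to 582.9 in FAP41BBL and 233.1 to 307.5 in RT_FAP41BBL. The 8 adipocyte markers summed to 54.9 to 216.6 CPM in RT, 21.4 to 89.4 in control, 164.6 to 297.4 in FAP41BBL and 77.4 to 351.3 in RT_FAP41BBL, with none past the test in any comparison. At an unadjusted p under 0.05 by the same test, all 8 were higher in RT_FAP41BBL against control and 7 in FAP41BBL against control. None reached it in RT against control, and 1 did in RT_FAP41BBL against RT.

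The 6 macrophage markers summed to 3411 to 4318 CPM in RT_FAP41BBL, above all libraries of control (2417 to 3134) and RT (2006 to 3267), and overlapped FAP41BBL (2767 to 3622). None passed the test in RT against control. In RT_FAP41BBL 3 of the 6 rose against control, Adgre1 by 1.33 ± 0.20 (adjusted p = 0.00393), Cd68 (adjusted p = 0.0111) and C1qa (adjusted p = 0.016). Against RT, where the muscle genes above fell, 3 of the 6 rose as well, C1qa (adjusted p = 0.0317), Adgre1 (adjusted p = 0.0367) and Csf1r (adjusted p = 0.0432). Against FAP41BBL 1 of the 6 rose. No fibroblast marker of 8 passed in any comparison, and of 6 epithelial markers 1 rose, in RT_FAP41BBL against RT.

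Of 8 cardiac markers 5 were tested. Their sum was 5.52 to 7.44 CPM in control and 12.9 to 26.0 in RT, with 6.28 to 13.7 for FAP41BBL and 9.53 to 13.1 for RT_FAP41BBL. In RT against control 2 of the 5 rose. Nppb, a natriuretic peptide that the heart secretes, rose by 2.53 ± 0.31 (adjusted p = 0.00107), from 30, 41 and 22 counts to 200, 192 and 183, and it also rose in RT_FAP41BBL, by 2.27 ± 0.31 (adjusted p = 0.00246). Myh6, which resembles Myh7 in sequence, had 1, 0 and 0 counts in control and 147, 255 and 433 in RT (adjusted p = 0.000709). In RT_FAP41BBL against RT Myh6 fell (adjusted p = 0.00338) and Tnni3 rose by 1.32 ± 0.30 (adjusted p = 0.0275). Nppa and Myl7 had at most 1 count in any library. The part of these other cells in the levels of the 10 genes was not tested.

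The genes whose log2 CPM ran most like that of each of the 8 tested members across the 12 libraries were sought among the 12667 genes whose log2 CPM averaged 0 or more. Chrna1 was followed most closely by Trim54 (Pearson r = 0.993), Cavin4 (0.992) and Mustn1 (0.987). For Myog these were Adprhl1 (0.975), Hspb7 (0.975) and Sln (0.974), and for Myod1 Myoz2 (0.95), H19 (0.949) and Cacng1 (0.947). Mymk, Myh3 and Chrng shared Myl4 and Tnni1 among their nearest 3, with r of 0.938 to 0.963. Their remaining neighbours were Aen for Mymk (0.932) and for Chrng (0.956), and Sephs2 for Myh3 (0.937). Myh8 ran with Myom3 (0.949), Mybph (0.925) and the adult chain Myh1 (0.915), and Pax7 with Mid1ip1 (0.932), Fhl3 (0.931) and Srm (0.914). The values describe 12 libraries that share the same 4 groups and carry no p. With the 3 RT libraries left out, r of the same neighbours ran from 0.779 for Srm to 0.988 for Cavin4.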

How the data were processed

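Stranded mRNA sequencing of 12 mouse tumour samples gave 1 library each, in 4 groups of 3 by the treatment label. What the authors deposited are raw counts for each gene, made by featureCounts 1.6.0 over exons by gene, read pairs as fragments, reverse strand, with GENCODE M33, per the file headers. Per the submitters' processing notes the build was GRCm39 and the tools included STAR 2.7.9a, FastQC 0.11.8, limma and edgeR.

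Symbols came from GENCODE M21 for 51948 of 56884 genes, and coordinates from the authors' files. In R 4.3.3, edgeR 4.0.16 kept 17757 genes (filterByExpr), scaled by TMM and fitted the 4 groups to all 12 libraries (common biological coefficient of variation 0.205, 8 residual degrees of freedom). Contrasts used its quasi-likelihood test (robust), adjusted by Benjamini-Hochberg over all kept genes, at 0.05. CPM were taken from the TMM-adjusted library totals, and RPKM are CPM per kilobase of exon length. The SE of a log2 change is its size divided by the square root of its F statistic. Log2 CPM used a prior count of 2. Intervals of pooled ratios are exact 95% counting intervals, and a count of 0 allows 3 counts. The fit of RT against control was tried on simulated counts that gave every gene the common coefficient of variation. Changes were placed only in genes with higher counts. That trial does not cover sparse genes, genes with a wider spread or the other contrasts.

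The 10 genes, the lists and the tests were chosen with earlier results of these data known. By rule the text could name the 10 genes, up to 4 genes past the test with the smallest p in each muscle list and comparison (2 where none passed), fixed partners such as Chrnb1, Chrnd, Chrne, Pax3, Myf6, Cdh15, Myl4, Ncam1, Musk, Runx1, Trim63, Fbxo32, Acta1, Ckm and the heavy chains, and 3 genes of most like pattern. Alternatives were RLE factors, library totals, keeping low counts, limma-voom (limma 3.58.1), DESeq2 1.42.0, the replicate number as a block, the 2 compared groups alone, each library left out, and adult fibre genes without the slow ones. No 2 libraries of a group were copies. No sequence was used for Myod1, Mymk or Mymx, and no protein sequence. The values of 1 listed gene are not reported here.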

Additional observations from a re-analysis of the deposited data

Results flagged for a closer look

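Of the listed genes, 2 changed with radiotherapy by a different amount with muFAP-4-1BBL than without it, by the interaction term of edgeR's quasi-likelihood test, which 0.152% of all genes passed. For Ankrd1, a stretch and injury response gene, the change with muFAP-4-1BBL minus that without it was -1.18 ± 0.20 on the log2 scale (adjusted p = 0.0437). Its mean went from 50.6 ± 5.91 CPM in control to 120.2 ± 9.28 with RT, and from 76.8 ± 12.6 with FAP41BBL to 80.2 ± 11.5 with RT_FAP41BBL. The call was lost in 10 of the 12 fits that left out a library, all but those without FAP41BBL replicate 2 or RT replicate 3 (adjusted p up to 0.138). For Myl3, a slow myosin light chain, the difference was -8.13 (adjusted p = 0.0311), a size that is imprecise because control held 3 counts in all and RT_FAP41BBL 5, against 156, 232 and 325 in RT. It was lost in 8 of the 12 such fits (adjusted p up to 0.132), all but those without control replicate 1, RT replicate 1 or 3 or FAP41BBL replicate 2. With the replicate number as a block both calls were lost (adjusted p = 0.0644 each).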

How the results depend on the processing

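Of the log2 changes of the 8 tested genes among the 10, 498 values from the alternatives moved by less than 1 SD between replicates and 14 by more. No listed gene past the test turned direction, and over the alternatives its adjusted p stayed past the threshold 814 times and missed it 350 times. The 4 ratios to adult fibre genes kept within 1 SD without slow fibre genes (2.83, 2.61, 2.79 and 7.38 in control, RT, FAP41BBL and RT_FAP41BBL) and with 1 library left out (1.74 to 3.64, 2.34 to 2.83, 1.95 to 3.63 and 6.85 to 7.78). The cause of the shifts below was not tested, except that fewer samples entered the fits of 2 groups and those without a library.

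For RT against control, 1709 genes became 1064 in the fit of 2 groups and 805 to 1987 without 1 library. Adult fibre genes (24) were 8 with no low-count filter, 9 with the replicate block and 8 to 17 without 1 library, and developmental genes (8) were 5 in the fit of 2 groups and 5 to 7 without 1 library. Without 1 library, satellite cell genes (3) were 2 to 3, myogenic partners (8) 5 to 10, receptor genes (5) 3 to 5 and denervation genes (5) 1 to 5.

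For RT_FAP41BBL against control, 1404 genes became 2341 by DESeq2, 3223 in the fit of 2 groups and 351 to 914 without 1 library. Satellite cell genes (2) were 4 by DESeq2, 5 in the fit of 2 groups and 0 to 1 without 1 library. Receptor genes (1) were 0 with library totals, with no filter, with the replicate block and in the fit of 2 groups, and 0 to 1 without 1 library. Denervation genes (3) were 1 with no filter and 0 to 1 without 1 library, and adult fibre genes (1) 0 in the fit of 2 groups and 0 to 1 without 1 library. Developmental genes (2) were 0 to 3 and myogenic partners (6) 1 to 3 without 1 library.

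For RT_FAP41BBL against RT, 1022 genes became 2063 by DESeq2 and 70 to 2305 without 1 library. By DESeq2, limma-voom and the fit of 2 groups, adult fibre genes (8) were 29, 19 and 35, myogenic partners (2) 5, 4 and 4, developmental genes (2) 4, 1 and 5 and denervation genes (0) 1, 2 and 3. Receptor genes (2) were 1 with library totals, no filter, the replicate block and 2 groups. Without 1 library these lists were 4 to 8, 0 to 4, 0 to 1, 0 to 1 and 0 to 1, and satellite cell genes (3) 0 to 3.

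For FAP41BBL against control, 1 gene became 9 with no filter, 48 by DESeq2, 0 in the fit of 2 groups and 0 to 3 without 1 library, and of the 6 lists DESeq2 called 1. For RT_FAP41BBL against FAP41BBL, 168 genes became 774 by DESeq2, 269 in the fit of 2 groups and 0 to 132 without 1 library, and the 2 listed genes 8 by DESeq2, 1 by limma-voom, 0 with the replicate block and 0 without 1 library. The interaction's 27 genes became 17 with library totals, 102 with no filter, 633 by DESeq2, 9 with the replicate block and 0 to 269 without 1 library, and its 2 listed genes 1, 4, 26, 0 and 0 to 6.

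Same-numbered libraries deviated from their group means with correlations of -0.316 to 0.327, so the numbers were not taken to pair them. The replicate block ended 17 of 53 calls of listed genes in RT against control, 2 of 17 in RT_FAP41BBL against RT and 1 of 15 in RT_FAP41BBL against control. Depth limits Pax7, Myf5 and Mymx, which had 0 to 16 counts a library.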
